A study of Mus musculus with 2 samples.

Results

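Mir132 and Mir212 are neighbouring microRNA (miRNA) genes on mouse chromosome 11, and were taken by gene name from the GENCODE M21 annotation as 2 of 2202 miRNA genes in the deposited count files. Both were found. MicroRNA sequencing had been carried out on total RNA from the left cerebral cortex of B6CASTF1/J mice, the F1 hybrid of C57BL/6J and CAST/EiJ. The animals were males aged 25 days, numbered separately by the submitters, and gave 1 library each, so there is 1 group with 2 biological replicates and no treated or mutant group. The comparisons the design allows are between the genes within a library and between the libraries.

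A miRNA is cut from a hairpin precursor into a product of the 5′ arm and a product of the 3′ arm, and is loaded into an Argonaute protein, where bases 2 to 8 (the seed) pair with target mRNAs and lower their output. The Mir132 and Mir212 locus is known as a target of the activity-dependent transcription factor CREB and of the neurotrophin BDNF in neurons. In cultured rat neurons miR-132 promotes the outgrowth of neurites. In mouse visual cortex its level depends on visual experience.

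The mature products show why both genes are treated as one family. They are given here as listed in the RefSeq table for GRCm38.p6 (the assembly also called mm10), 5′ to 3′, with the seed in capitals.
mmu-miR-132-3p: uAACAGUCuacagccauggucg
mmu-miR-212-3p: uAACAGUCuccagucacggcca
mmu-miR-132-5p: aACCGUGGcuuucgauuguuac
mmu-miR-212-5p: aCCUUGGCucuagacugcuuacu
The 3p products shared the seed AACAGUC, and no other of the 1679 mature products in that table carried it. Their identity ran from base 1 through base 9. Over 22 positions, counted from 1 at the 5′ end, 17 were identical and 5 differed. Written from miR-132-3p to miR-212-3p, the differences were A10C, C14U, U17C, U20C and G22A. The 5p products had different seeds, ACCGUGG and CCUUGGC, which no other product in the table shared, and matched at 9 of 22 positions.

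The hairpins differ in length and base composition. They are shown with both mature products in capitals, to place the arms within each precursor.
mmu-mir-212 hairpin: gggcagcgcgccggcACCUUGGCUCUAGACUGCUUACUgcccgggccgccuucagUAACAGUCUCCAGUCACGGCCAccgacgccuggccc
mmu-mir-132 hairpin: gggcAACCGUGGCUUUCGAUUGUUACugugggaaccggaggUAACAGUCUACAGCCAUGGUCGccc
The Mir212 hairpin had 91 bases and a GC content of 69.2%, and the Mir132 hairpin had 66 bases and 57.6%. The predicted minimum free energy (RNAfold) was -41.5 kcal/mol for Mir212 and -37.2 kcal/mol for Mir132. The longest exact stretch that a mature product of either gene shared with any of the other 1004 hairpins in the table, on either strand, was 11 bases, between miR-212-5p and Mir7052. For miR-132-3p and miR-212-3p it was 10 bases each. The products of the cluster therefore had no full-length exact copy in another hairpin of that table. Copies with scattered mismatches share only short exact stretches, so this search cannot exclude them. The table held 968 of the miRNA genes of the count files by symbol. Reads matching several loci, which the deposited counts leave out, were 48.6% and 52.8% of mapped reads in replicates 1 and 2.

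Both hairpins lay on the plus strand within intron 1 of 1700016P03Rik (ENSMUSG00000085609.1), a non-coding transcript of 3 exons on chr11:75172560-75177633 of mm10. Mir212 (ENSMUSG00000065590.1) occupied chr11:75173388-75173478, and Mir132 (ENSMUSG00000065537.2) followed at chr11:75173682-75173747. Between the hairpins lay 203 bases. Exon 1 ended 790 bases before Mir212, exon 2 began 230 bases after Mir132, and the intron measured 1380 bases. The cluster stood alone among miRNA genes: the nearest annotated one before it, Mir6926, was 305 kb away and had 9 and 11 counts in replicates 1 and 2. The nearest one after it, Gm47300, was 145 kb away and had 0 counts in both.

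**Figure D1:**
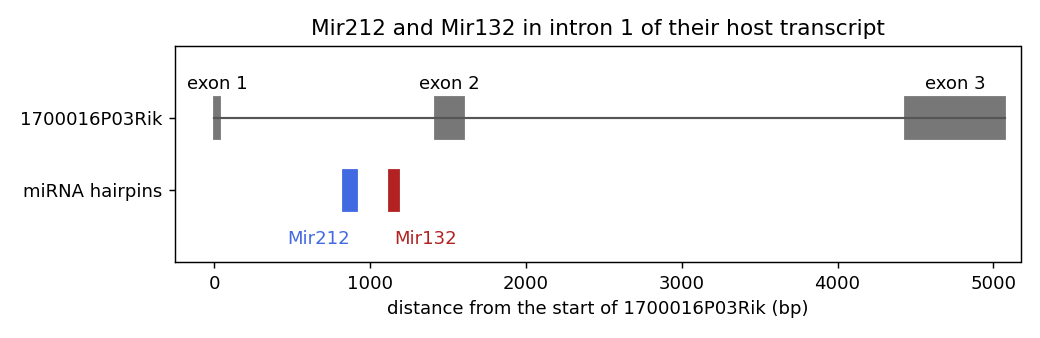
The x axis gives the distance in bp from the start of the host transcript 1700016P03Rik, with its 3 exons as grey boxes and the hairpins of Mir212 (blue) and Mir132 (red) below. Both hairpins sit in intron 1, with Mir212 first.

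The libraries differed in depth. Own-strand counts summed to 2388379 for replicate 1 and to 4447390 for replicate 2. Levels are counts per 1000000 of these own-strand counts (CPM), intervals are exact 95% Clopper-Pearson intervals, and errors are SDs of n = 2 libraries. Intervals cover counting error only, since reads that carry no molecular identifier can be copies of one molecule. Counts were not divided by length, since the mature products of both genes have 22 or 23 bases. A count covers both arms of a hairpin, so the 5p and 3p products are not separated in any level given here.

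By these counts, which leave out reads matching several loci, Mir132 was among the most abundant miRNA genes in both mice. Mir212 was moderately abundant. Genes with near-identical copies lose such reads, so the ranks and shares hold within these counts and not for all miRNAs of the cortex. Mir132 had 144239 counts in replicate 1, a level of 60392 CPM (60090 to 60695), and 168080 counts in replicate 2, a level of 37793 CPM (37616 to 37971). It ranked 4 in replicate 1 and 6 in replicate 2, and took 6.04% and 3.78% of the counts. Its mean level was 49092 ± 15979.9 CPM, rank 6 of all genes.

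Mir212 had 2850 counts in replicate 1, a level of 1193 CPM (1150 to 1238), and 4782 counts in replicate 2, a level of 1075 CPM (1045 to 1106). It ranked 95 and 103, and took 0.119% and 0.108% of the counts. Its mean level was 1134 ± 83.5 CPM, rank 98. Of the 392 genes that reached 10 counts in both libraries, called measured here, 97 had a higher mean level than Mir212, and the median of all 392 was 121 CPM. Neither gene had a count on the opposite strand in either library.

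**Figure D2:**
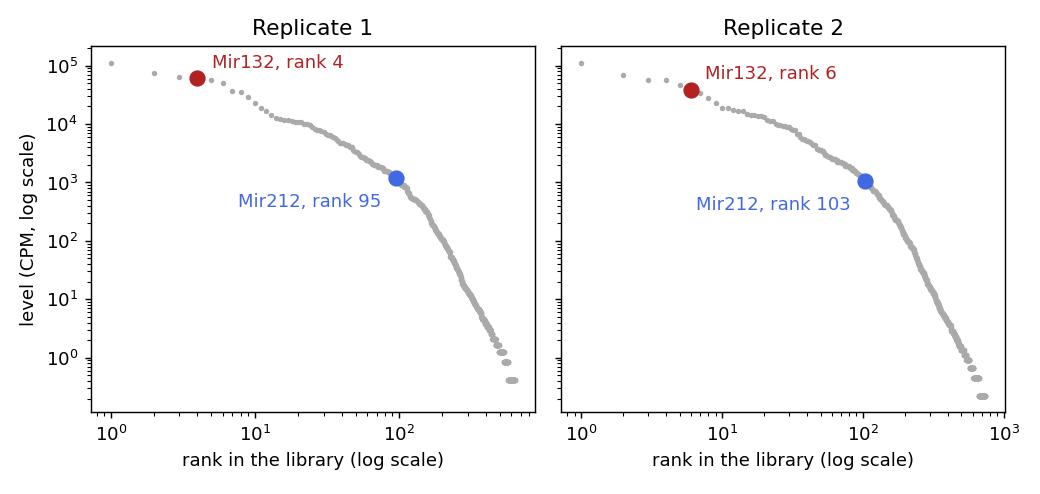
Each grey point is a miRNA gene with a count, placed by its rank (x axis, log scale) and level in CPM (y axis, log scale), with 1 panel per library. Mir132 (red) stands at ranks 4 and 6, on the plateau of the most abundant genes, and Mir212 (blue) at ranks 95 and 103, where levels are near 1000 CPM.

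The order of levels around Mir132 was settled only in part by these libraries. The genes directly above it in mean level were Mirlet7b (60463 ± 4459 CPM), Mir127 (54060 ± 5425 CPM) and Mirlet7i (51983 ± 6461 CPM). The range of each of them overlapped that of Mir132. Within a library, Mirlet7b was above Mir132 in both replicate 1 (63616 CPM) and replicate 2 (57310 CPM). Mir127 and Mirlet7i were below Mir132 in replicate 1 and above it in replicate 2, so their order with Mir132 was not settled. Mir744, the next below, was at 36492 and 34658 CPM in replicates 1 and 2, under both values of Mir132, although the means differed by less than the SD of Mir132. Mirlet7e (28648 ± 999.97 CPM) and Mirlet7d (25213 ± 14851 CPM) were lower than Mir132 in both libraries without overlap. Around Mir212, the 3 genes above (Mir666, Mir125b-1 and Mir31) and the 3 below (Mir540, Mir381 and Mir140) had mean levels of 1111 to 1170 CPM. The ranges of all 6 overlapped that of Mir212.

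Mir132 exceeded Mir212 by a wide margin in each mouse, and by a different factor in each. There were 50.6 Mir132 counts per Mir212 count in replicate 1 (48.8 to 52.5) and 35.1 in replicate 2 (34.2 to 36.2). The mean was 42.9 ± 10.9 (n = 2), and the intervals of the 2 libraries did not overlap. Mir132 made up 98.1% of the counts of the cluster in replicate 1 and 97.2% in replicate 2. Together the genes took 6.16% of the counts (61585 CPM) in replicate 1 and 3.89% (38868 CPM) in replicate 2. Of the counts of genes that carry the seed AACAGUC in the table, 5p reads included, Mir132 thus supplied all but a few percent.

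**Figure D3:**
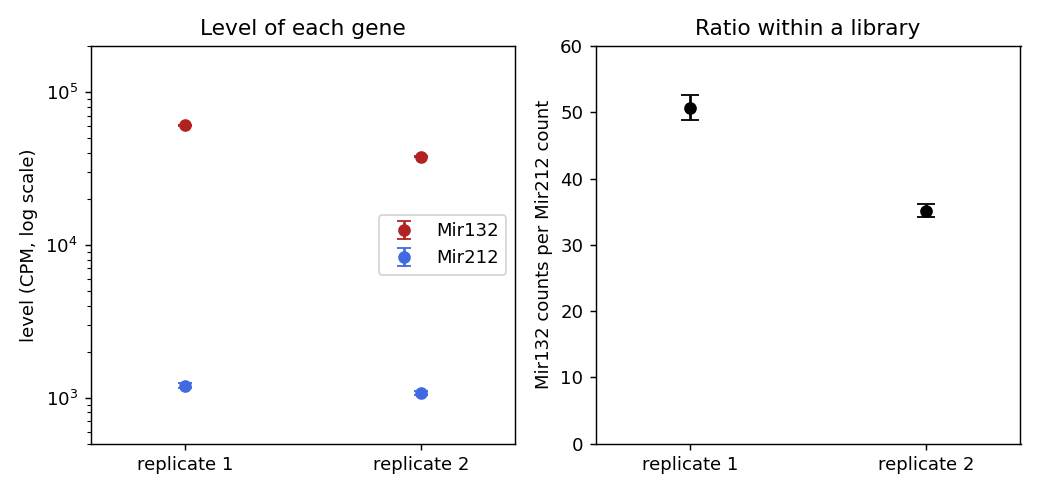
On the left, the level in CPM (y axis, log scale) of Mir132 (red) and Mir212 (blue) in each library; on the right, the Mir132 counts per Mir212 count. Points are single libraries and bars are exact 95% intervals (on the left mostly smaller than the points); the ratio is 50.6 in replicate 1 and 35.1 in replicate 2.

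Both genes were lower in replicate 2, Mir132 by more. Mir132 stood at 0.626 of its replicate 1 level (0.621 to 0.630), a log2 ratio of -0.68 with a counting SE of 0.0052. Mir212 stood at 0.901 (0.860 to 0.944), a log2 ratio of -0.15 with a counting SE of 0.034. Both passed an exact conditional binomial test against the library totals (two-sided, Benjamini-Hochberg adjusted over 392 genes). The adjusted p was 2.86e-05 for Mir212, and for Mir132 it was below what the computation can represent and is listed as 0. Of all measured genes 56.9% passed this test, and 22.7% passed with a lower level in replicate 2, so passing was common. Of the 242 genes that reached 100 counts in both libraries, tested alone, 194 passed, 79 of them with a lower level in replicate 2.

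This test compares the libraries, not conditions, and covers counting error alone. With 1 library per mouse, the animal and the library cannot be told apart. The exact test of edgeR also takes in how far genes spread between libraries, with a biological coefficient of variation of 0.310 estimated from these libraries themselves. There neither gene passed, with an adjusted p of 1 for both and unadjusted p of 0.293 for Mir132 and 0.815 for Mir212. In that test 3 genes, 0.765% of those measured, passed. The differences tested also set the spread it uses, so few genes could pass. In bulk tissue, fewer cells that express a miRNA and less of it per cell cannot be told apart.

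The log2 ratios of the 2 genes differed from each other. The difference, Mir132 minus Mir212, was -0.53 on the log2 scale (95% interval -0.59 to -0.46). It passed Fisher's exact test on the counts of the 2 genes in the 2 libraries (two-sided, p = 1.29e-53). The comparison is free of library scaling, because the totals cancel, but it also covers counting error only and rests on 1 library on each side.

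Among abundant genes, the difference of Mir132 between the mice was one of the larger ones. Of the 242 genes that reached 100 counts in both libraries, 13 (5.37%) had a lower log2 ratio than Mir132, and 46 (19.0%) had a ratio farther from 0 in either direction. For Mir212 these numbers were 62 and 167. The quartiles of the log2 ratio over the 242 genes were -0.15 and 0.38, so Mir212 was close to the lower quartile. Among the 23 genes with a mean of at least 10000 CPM, Mirlet7d (log2 ratio -1.28) and Mir770 (-0.68) were the only ones with a lower log2 ratio than Mir132. In the other direction Mir22 (1.64), Mir126a (1.06) and Mir128-1 (0.70) were also farther from 0. The SD of the log2 ratio over the 23 genes was 0.60. In CPM, Mir132 was lower in replicate 2 by 22599, the largest such difference of all genes, ahead of Mirlet7d with 21003. It made up 20.0% of the summed differences of the 310 genes that were lower in replicate 2. For Mir212 the difference was 118 CPM.

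**Figure D4:**
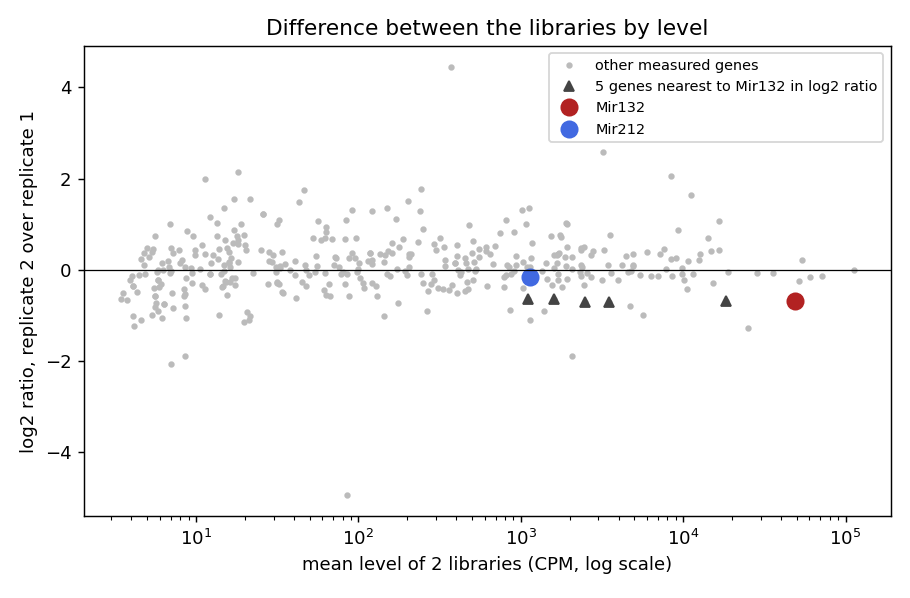
The log2 ratio of replicate 2 over replicate 1 (y axis) against the mean level of 2 libraries in CPM (x axis, log scale) for the 392 measured genes (points). Mir132 (red, -0.68) lies below 0 at the right edge, Mir212 (blue, -0.15) close to the line of no difference, and triangles mark the 5 genes whose log2 ratio is nearest to that of Mir132.

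The genes most like Mir132 in this difference, by the absolute difference of log2 ratios over the 2 libraries among genes that reached 100 counts in both, were Mir770, Mir370, Mir320, Mir140 and Mir107. Mir770, which lies in the imprinted Dlk1-Dio3 domain on chromosome 12, had levels of 22745 and 14233 CPM in replicates 1 and 2, and a log2 ratio 1.17e-04 away from that of Mir132. The other 4, of which Mir370 lies in the same domain, were within 0.043 of Mir132. They had log2 ratios of -0.72 to -0.63 and mean levels of 1111 to 3515 CPM. None of the 5 is on chromosome 11. The genes nearest to Mir212 were Mirlet7b, Mir17, Mir181d, Mir411 and Mir379, all within 0.0124 of its log2 ratio. Of these, Mir411 and Mir379 lie in the Dlk1-Dio3 domain. With 2 libraries this likeness is a single number per gene, and many genes lie near any given ratio.

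Unequal levels within a cluster were common in these libraries. Besides Mir132 and Mir212 there were 86 pairs of adjacent miRNA genes on the same strand, with starts at most 10 kb apart and at least 10 counts per library for each gene. The higher gene of a pair exceeded the lower by a median of 7.99-fold in mean CPM (1.02 to 923). Mir132 exceeded Mir212 by 43.3-fold, and 12 of the 86 pairs had a higher ratio. The closest match was Mir329 over Mir758, in the Dlk1-Dio3 domain, at 43.4-fold, with Mir758 at 27 and 63 counts. Among the 65 other pairs with at least 100 counts per library for each gene, 6 had a higher ratio than the cluster. The highest of these was 195-fold. Pairs overlap where clusters hold more than 2 genes, and pairs with near-identical copies elsewhere lose reads that match several loci, so the distribution is a description.

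The difference in log2 ratio between Mir132 and Mir212 was near the middle of the same pairs. It was 0.53 in absolute size, against a median of 0.56 over the other 86 pairs (0.0036 to 2.48), and 46 of the 86 had a larger one. Members had log2 ratios of the same sign in 39 of the 86 other pairs, as Mir132 and Mir212 did. Of the 3 pairs with the highest summed level, Mir127 and Mir433 differed by 0.49 and had opposite signs (0.21 and -0.28). Mirlet7b over Mirlet7c-2 had a level ratio of 38.7 and log2 ratios of -0.15 and -0.34. Mir127 over Mir434 had a level ratio of 19.5 and log2 ratios of 0.21 and 0.41.

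**Figure D5:**
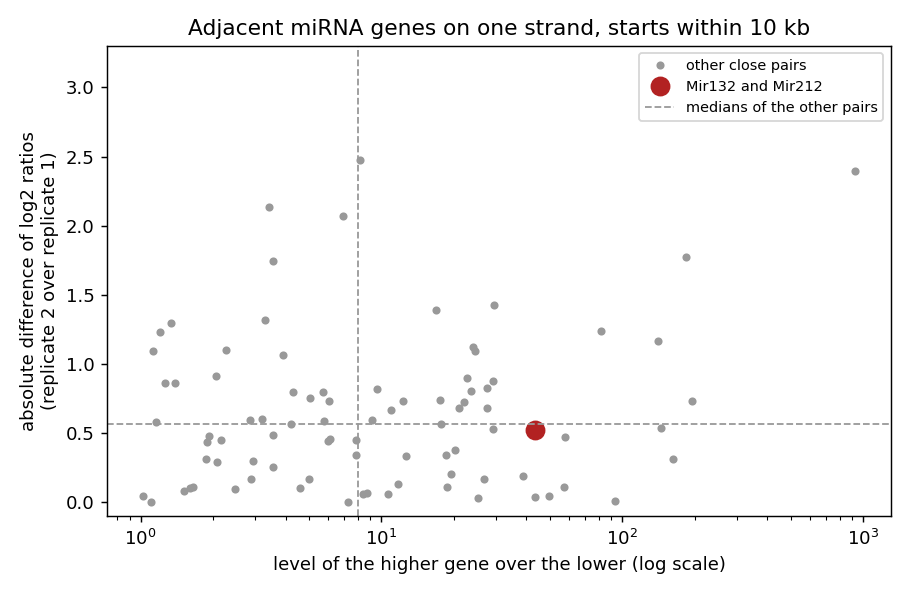
Each point is a pair of adjacent miRNA genes on one strand with starts within 10 kb, placed by the level of the higher gene over the lower (x axis, log scale) and by the absolute difference of their log2 ratios between the libraries (y axis). Mir132 and Mir212 (red) lie to the right of the median level ratio of the other pairs (dashed, 7.99) and near their median difference (dashed, 0.56).

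Other miRNA genes reported to respond to neuronal activity or to regulators tied to it went in both directions between the libraries. Measured genes in general did so too, so no trait of this class is read from the list. Of the 15 listed genes 12 were measured, of which 6 were higher and 5 lower in replicate 2 past the binomial test. Over all measured genes 34.2% passed as higher and 22.7% as lower. All 12 reached 100 counts in both libraries. Of the 242 genes that did so, tested alone, 115 passed as higher and 79 as lower. The median log2 ratio of the 12 genes was 0.04, against 0.06 over all measured genes. Mir191 was at 10974 and 9393 CPM in replicates 1 and 2, a log2 ratio of -0.22. Mir137, which acts in neuronal maturation, was at 6366 and 8063 CPM, a log2 ratio of 0.34. Mir379, the first gene of a Dlk1-Dio3 cluster that responds to MEF2 in rat neurons, was at 6661 and 6053 CPM, a log2 ratio of -0.14. Mir138-1, a numbered copy of a miRNA known to limit dendritic spine size in rat neurons, was at 4725 and 5103 CPM, a log2 ratio of 0.11. The extremes, named after their values were seen, were Mir501 at -0.89 and Mir381 at 1.35. Mir134, which limits spine size in rat neurons through the kinase Limk1, was at 528 and 514 CPM and did not pass (adjusted p = 0.567 in the exact binomial test). The 15 genes summed to 36680 and 37207 CPM in replicates 1 and 2, less than Mir132 alone in each library. Mir124a-1, Mir124a-2 and Mir124a-3 entered that sum with 9 counts or fewer each in a library, and as near-identical copies their levels are uncertain.

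Cell type markers were read beside these values. Neuron markers, 5 of 8 measured, held 2.73% of the counts in replicate 1 and 3.70% in replicate 2. Mir137, Mir138-1, Mir138-2 and the Mir124a copies among them are also in the list of activity genes above. Past the binomial test 4 were higher and 1 lower, as were 34.2% and 22.7% of all measured genes. Of the 242 genes that reached 100 counts in both libraries, as these 5 did, 115 passed as higher and 79 as lower, tested alone. The median log2 ratio of the neuron markers was 0.34, against 0.06 over all measured genes, and Mir128-1 led them at 10802 and 17606 CPM. Endothelial and mural markers, all 3 measured, held 1.68% and 2.80%, with 1 higher and 2 lower past the test and a median log2 ratio of -0.11. Mir126a was at 10782 and 22504 CPM, while Mir143 (5660 and 5238 CPM) and Mir145a (312 and 268 CPM) were lower in replicate 2. Oligodendrocyte markers, all 3 measured, held 0.273% and 0.356%, with a median log2 ratio of -0.03. Mir219a-2 was higher in replicate 2 (1345 and 2210 CPM), while Mir338 (log2 ratio -0.03) and Mir219a-1 (-0.75) did not pass. Markers of microglia and blood, all 4 measured, held 0.153% and 0.167%, with 1 higher past the test and a median log2 ratio of 0.09. Mir150 (1358 and 1496 CPM) was the one that passed and held most of this share. Mir451a (log2 ratio -0.08), Mir142 (0.05) and Mir223 (0.54) did not pass. Heart and skeletal muscle markers, 2 of 6 measured, summed to 20.9 and 25.9 CPM. Nearly all of this was Mir206 (13.4 and 22.3 CPM), higher past the test, and Mir208a (7.12 and 3.60 CPM), which did not pass. Mir1a-1, Mir133a-1 and Mir133a-2 were at 0 counts in both libraries. The liver miRNA Mir122 was at 54.0 and 57.6 CPM. Numbered copies among the markers (Mir124a, Mir128, Mir138, Mir219a, Mir1a and Mir133a) can lose reads that match several loci, so their levels are uncertain. The 0 counts are therefore not read as absence of muscle RNA. The part of the shifts in these markers, and of the depth, in the difference of Mir132 was not tested.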

How the data were processed

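Per the readme files, the authors made counts per miRNA gene on mm10 with GENCODE M21; the deposited values are raw counts, 1 library per file. The aligner and the counter were not given in the sources used here. From the values, the 3 columns were read as both strands, own strand and opposite strand, and the own-strand counts were used. All 2202 identifiers matched the annotation. Entries that name no gene stayed out of totals: unmapped reads were 31.6% and 18.2% of all reads in replicates 1 and 2, and no-feature reads 7.36% and 6.91% of mapped reads. Reads were mapped to the C57BL/6J reference, and the effect on the CAST/EiJ allele was not tested. Totals allow 1.26 and 0.675 CPM for a floor of 3 counts.

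CPM, ratios (no pseudocount) and tests were computed here on the whole table, with an adjusted p threshold of 0.05. Simulated counts with known changes were used to check the binomial test. They were drawn with counting error alone and tested against totals of unchanged genes, so the check does not cover spread between libraries. Tools were Python 3.11.15, NumPy 2.4.6, SciPy 1.17.1, pandas 2.3.3, matplotlib 3.10.9, R 4.3.3, edgeR 4.0.16, DESeq2 1.42.0 (size factors) and RNAfold 2.7.2. The quasi-likelihood test has no contrast in 1 group. Named are both genes, 3 neighbours in level on each side, the 5 nearest in log2 ratio, the nearest miRNA genes, close pairs by ratio and level, and list members. Abundant genes with a log2 ratio farther from 0 than that of Mir132 are named too. Mir132, Mir212, the lists and the tests were chosen with earlier results of these data known. Alternatives were other scalings, both strands, other count minimums, other pair distances and single libraries.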

Additional observations from a re-analysis of the deposited data

How the results depend on the processing

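The log2 ratios of Mir132 (-0.80 to -0.65) and Mir212 (-0.28 to -0.13) stayed below 0 and past the binomial test under TMM, DESeq2, mapped-read and reduced totals, both strands together and count minimums of 1 and 100. In edgeR's exact test the same ratios, -0.68 and -0.15, did not pass (adjusted p = 1 for both). There 3 genes passed in place of 223 (20 at an unadjusted p under 0.05). This test adds the spread between the libraries, estimated from the same 2 libraries that it compares. The differences tested thus count as spread, so few genes could pass, and no conclusion is drawn from it. Per 1000000 mapped reads, Mir132 was at 20916 CPM and Mir212 at 479.5 CPM, because the totals include reads given to no gene. That scaling moved the median log2 ratio of all genes by -0.13 and the genes lower in replicate 2 from 39.9% to 52.7% of those called. Mir212 was at 1278 CPM without the most abundant gene in the totals and at 1229 CPM with both strands together. In the both-strands column some abundant genes, among them Mirlet7e and Mir191, had 0 counts, so they left its totals. There 367 genes were tested. The median level ratio of other close pairs was 6.54 within 1 kb. With 1 library left out, Mir132 was at 37793 to 60392 CPM, Mir212 at 1075 to 1193 CPM, and the ratio of their counts at 35.1 to 50.6. Ratios between libraries have no value with 1 library. No paired analysis was possible because there is 1 group. Mir212 rests on 2850 counts at the lower depth, which sets the width of the interval of the ratio.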
